A study of Mus musculus with 81 samples.

Results

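The comparison described here spans the yolk sac and the fetal liver of wild-type mice, and is called a step below. It set 3 samples of CD11bhigh cells sorted from E14 liver, labelled macrophages, against 3 samples of a yolk sac progenitor population called A1, sorted at E9.5 and labelled erythro-myeloid progenitors. These are 6 of the 80 samples of a microarray series of 27 groups, which covers yolk sac, brain, liver, kidney and skin populations of embryos (E8, E9.5 and E14, from timed matings) and of adult mice 6 weeks old, in wild-type and in Irf8 knockout animals. E8, E9.5 and E14 are embryonic days. Besides the 6 samples, the comparisons below use 3 Irf8 knockout E14 liver CD11bhigh samples and 3 Irf8 knockout A1 samples, and 3 wild-type E14 Kupffer cell samples and 3 wild-type samples of A2, a second E9.5 yolk sac population labelled erythro-myeloid progenitors. No group other than these knockouts carried a stated allele or treatment, and the labels give neither the strain, the kind of knockout allele nor the number of embryos pooled. Every value is a log2 expression value of the gene's brightest probe among probes with exactly 1 gene symbol, so a difference of 1 is a 2-fold difference. Of 22180 such genes, 17099 rose above the median of the whole table (3.041) in at least 2 of 81 arrays and were tested.

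Erythro-myeloid progenitors arise from yolk sac endothelium, carry Kit and reach the fetal liver through the blood, where they and later progenitors give rise to erythroid, megakaryocytic, mast, granulocytic and macrophage cells. CD11b, encoded by Itgam, is an integrin chain of monocytes, granulocytes and many macrophages. It takes part in adhesion and in the uptake of complement-coated particles. Irf8 is a transcription factor that favours monocyte and dendritic cell fates over the granulocyte fate. Granulocytes make their granules in order: primary (azurophilic) granules with serine proteases form first, secondary and tertiary granules with lactoferrin, cathelicidin and metalloproteases later, while the cells mature.

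The labels were checked against defining genes. Itgam, the gene of the sort marker, had 8.64, 8.87 and 8.74 in liver, against 6.87, 7.09 and 7.24 in A1 (each triplet is replicates 1, 2 and 3). The change of 1.68 ± 0.25 (SE) is no finding, since the liver cells were sorted on this marker. Irf8 had 8.67, 8.88 and 8.67 in liver, against 6.26, 7.05 and 6.8 in A1. The 2 groups did not overlap, and the change of 2.03 ± 0.25 passed the test (adjusted p = 1.48e-09; limma, Benjamini-Hochberg over all genes tested, as for every adjusted p here). The pan-leukocyte gene Ptprc was above the table's median in all 6 samples, at 9.07 ± 0.16 in liver, against 8.41 ± 0.29 in A1 (mean ± SD, n = 3 each, as for every such pair below). In A1 the progenitor genes lay well above that median: Kit, the stem cell factor receptor, averaged 8.54, Cd34 9.52, Myb 9.46, Gata2 8.04 and Gata1 6.68. In the liver CD11bhigh cells the monocyte gene Ly6c2 averaged 10.84, the chemokine receptor Ccr2 8.41, the macrophage growth factor receptor Csf1r 8.5 and Adgre1, which encodes F4/80, 6.89. In the same samples the granule genes Camp, Elane, Ltf and Ngp averaged 10.91, 10.93, 9.84 and 10.28, while the resident macrophage genes Cd5l, Vsig4 and Spic lay below the table's median at 2.64, 1.66 and 2.91. These 3 are among the 10 largest downward differences in the comparison with Kupffer cells below, and do not stand for all such genes. The list of 31 resident macrophage genes averaged 4.87, 4.76 and 4.78 in the liver samples, with 8 members higher than in A1 and 8 lower. The granule genes go beyond the label macrophages, and the group is called by its sort, liver CD11bhigh cells, below.

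Replicates correlated at 0.987 to 0.989 among the liver CD11bhigh samples (r across genes) and at 0.98 to 0.986 among the A1 samples, and no library stood apart. Genes of other cell types moved with the groups. Many hepatocyte genes were higher in the liver samples: 18 of 34 tested members of the hepatocyte and yolk sac endoderm list were higher and 2 lower (1 lower without A1 replicate 2, A1 replicate 3 or liver replicate 2), its mean level was 4.36, 4.4 and 4.34 in the liver CD11bhigh samples, against 3.0, 2.96 and 3.07 in the A1 samples, and Alb, the albumin gene, had 8.27, 8.32 and 7.86 in liver, against 2.36, 3.72 and 2.84 in A1. Hnf4a, the hepatocyte transcription factor, stayed near the table's median in both groups, at 3.05 ± 0.18 in liver, against 2.64 ± 0.3 in A1. Of 14 mesenchymal genes 1, Sparc, was lower (2 without A1 replicate 3) and 0 higher (1 without A1 replicate 3 or liver replicate 2), and of 4 sex-linked genes none passed. Of 13 B cell genes 7 were lower in the liver samples, with list means of 3.19, 3.07 and 3.23 there, against 4.35, 4.59 and 4.37 in A1. The A1 samples also differed among themselves: the monocyte list averaged 6.02, 6.48 and 6.88 in A1 replicates 1, 2 and 3, the T and NK cell list 3.85, 4.24 and 4.86, and the eosinophil list 4.18, 3.54 and 3.24. Stage, tissue and dissociation (a collagenase, dispase and DNase digest is stated for liver and none for yolk sac) differed together between the groups and cannot be told apart, and in bulk samples more cells of a type and more RNA per cell cannot be told apart either. The part of these other cells in the results below was not tested.

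In E14 liver CD11bhigh cells, set against A1, 3772 of 17099 genes (22.1%) passed the test: 1830 were higher in the liver cells (10.7%) and 1942 lower (11.4%). Counts within gene lists, above and below, are to be set beside these shares. Among the largest changes rises outnumbered falls. Among the higher genes 930 changed by more than 1, 242 by more than 2 and 46 by more than 4, while among the lower genes these counts were 865, 152 and 8. The 6 samples did not overlap for 1809 of the higher genes and for 1914 of the lower ones (together 21.8% of all genes tested), and they did not overlap for 43.5% of all genes, called or not. The median change over all genes was -0.04. Levels below the table's median are close to background, so that the size of a change against such a level is uncertain. Over all 27 groups, 108 of the 1830 higher genes had their highest mean in the liver CD11bhigh cells, among them the protease genes Ctsg, Mcpt8, Prss34 and Prtn3. In A1, 166 of the 1942 lower genes had theirs, among them Gzmc, Gzmd, Muc13, Itga2b, Ikzf2 and Hmga2. These genes were picked for being higher in the group concerned, and the share over all genes tested was not counted. The counts therefore do not measure how particular the genes are to either group.

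**Figure D1:**
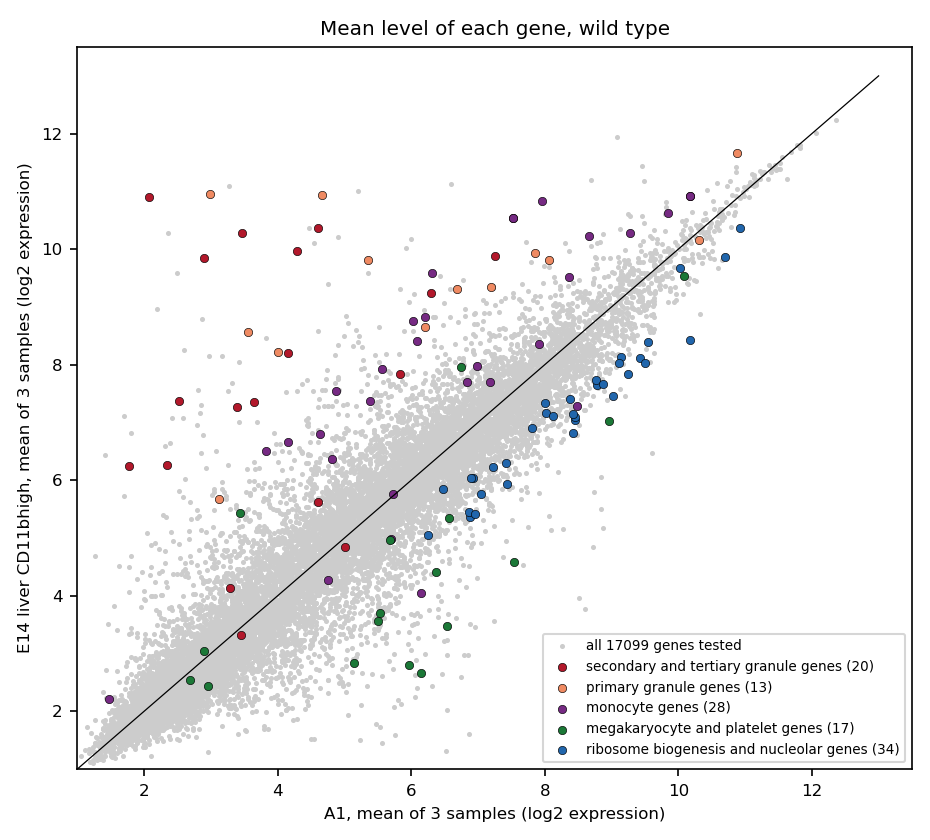
Mean log2 expression in the 3 E14 liver CD11bhigh samples (vertical axis) against the 3 A1 samples (horizontal axis) for 17099 genes (grey), with 5 gene lists coloured and a line of equal levels. Above the line, 11 of 13 primary and 16 of 20 secondary and tertiary granule genes passed the test, and below it 10 of 17 megakaryocyte and 33 of 34 ribosome biogenesis genes did.

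The largest rises were genes of granules and of a cystatin cluster. The 15 largest were Camp, Ctsg, Fcnb, Stfa3, Csta3, Ltf, Ngp, Mcpt8, Elane, Cstdc6, Prg2, Stfa2l1, Lcn2, Olfm4 and Cstdc5. Camp, which encodes the antimicrobial peptide cathelicidin, had 10.89, 10.89 and 10.93 in liver, against 1.72, 2.21 and 2.29 in A1. All 3 A1 values lay below the table's median, so the change of 8.83 ± 0.99 is better read as at least 7.86 above that level (adjusted p = 1.02e-10). Ctsg, the neutrophil protease cathepsin G, had 10.95, 10.93 and 10.97 in liver, against 2.94, 2.64 and 3.35 in A1, a change of 7.97 ± 0.72. Fcnb, which encodes ficolin B, a lectin that starts complement, averaged 10.28 ± 0.02 in liver, against 2.36 ± 0.66 in A1. Stfa3 and Csta3 belong to a cluster of stefin A genes, inhibitors of cysteine proteases, and changed by 7.83 and 7.09. In the 300-base windows around the starts of Stfa1, Stfa2, Stfa2l1 and Stfa3, Stfa2 and Stfa2l1 were identical at 79.7% of 296 aligned bases, the other pairs at 51.5% to 65.8% and the pairs with Stfa3 at 53.9% to 63.5%. Whether the probes of these genes share signal was not tested, so the values of single members are uncertain. In the wider list of cathepsin inhibitors and antimicrobial genes 17 of 29 were higher and 3 lower, with a median of 2.0. Pglyrp1, which binds bacterial peptidoglycan, changed by 4.53 ± 0.58, while Retnla, Lyz1 and Pglyrp2 fell.

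Genes of the primary granules rose: 11 of 13 tested members were higher, 0 were lower, and the median change was 2.55, against -0.04 over all genes. Elane, neutrophil elastase, had 10.96, 10.84 and 10.99 in liver, against 5.02, 4.35 and 4.62 in A1, and no A1 value came near a liver value. Prss57, another serine protease of these granules, changed by 5.01 ± 0.4, and Prtn3, proteinase 3, by 2.06 ± 0.56, with an A1 mean of 7.86. Ms4a3, a membrane protein of granulocyte and monocyte progenitors, averaged 9.81 ± 0.17 in liver, against 5.36 ± 0.56 in A1. The 2 members that did not pass were Mpo and Calr. Mpo, myeloperoxidase, had 11.71, 11.64 and 11.65 in liver, against 10.75, 10.91 and 10.97 in A1. Its groups did not overlap, yet with the spread taken over all 27 groups the change was 0.79 ± 0.79 (adjusted p = 0.59). Calr, the chaperone calreticulin, averaged 10.16 ± 0.05 in liver, against 10.31 ± 0.12 in A1.

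Secondary and tertiary granule genes rose further, with 16 of 20 higher, 0 lower and a median change of 3.79. Ltf, lactoferrin, had 9.44, 10.16 and 9.91 in liver, against 3.09, 2.94 and 2.67 in A1. Ngp, a neutrophil granule protein, had 10.01, 10.49 and 10.35 in liver, against 3.52, 3.24 and 3.63 in A1, and Lcn2, the siderophore-binding protein lipocalin 2, 10.17, 10.66 and 10.28 in liver, against 4.65, 4.94 and 4.24 in A1. In each case the lowest liver sample stood far above the highest A1 sample. Olfm4, Chil1, Itgb2l and Ltb4r1, the receptor for leukotriene B4, changed by 5.67 ± 0.53, 4.84 ± 0.46, 4.46 ± 0.39 and 4.04 ± 0.34. The members that did not pass were Mmp9 and Mmp25, metalloproteases of tertiary granules (1.01 and 0.84), Padi4 (-0.14) and Adam8 (-0.17). Padi4, the histone-modifying enzyme of neutrophil extracellular traps, lay close to the table's median in both groups, at 3.32 ± 0.47 in liver, against 3.45 ± 0.56 in A1.

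Genes of mature neutrophils gave 12 of 21 higher and 1 lower, with a median of 2.01. Wfdc21 changed by 5.31 ± 0.58 and Trem3, an activating receptor, by 4.63 ± 0.37. Several genes of late neutrophils were not among those that passed, with the spread taken over all 27 groups. With the compared groups fitted alone 18 of the 21 were higher, and with array weights 16. In these fits 5525 and 5905 of all genes changed, against 3772. Cxcr2, the receptor for neutrophil-attracting chemokines, averaged 7.94 ± 0.32 in liver, against 7.24 ± 0.12 in A1, Csf3r, the receptor of granulocyte colony-stimulating factor, 8.23 ± 0.05 in liver, against 7.71 ± 0.12 in A1, and Retnlg 5.13 ± 0.63 in liver, against 4.84 ± 0.82 in A1. S100a8, a calcium-binding protein of neutrophils and monocytes, had 11.54, 11.41 and 11.38 in liver, against 8.96, 9.69 and 9.73 in A1. Its groups did not overlap, but with the spread taken over all 27 groups its change of 1.99 ± 1.14 did not pass (adjusted p = 0.244). The 1 member that fell was Il1b, the interleukin-1 beta gene, with 3.18, 3.02 and 2.75 in liver, against 6.04, 6.48 and 7.08 in A1.

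**Figure D2:**
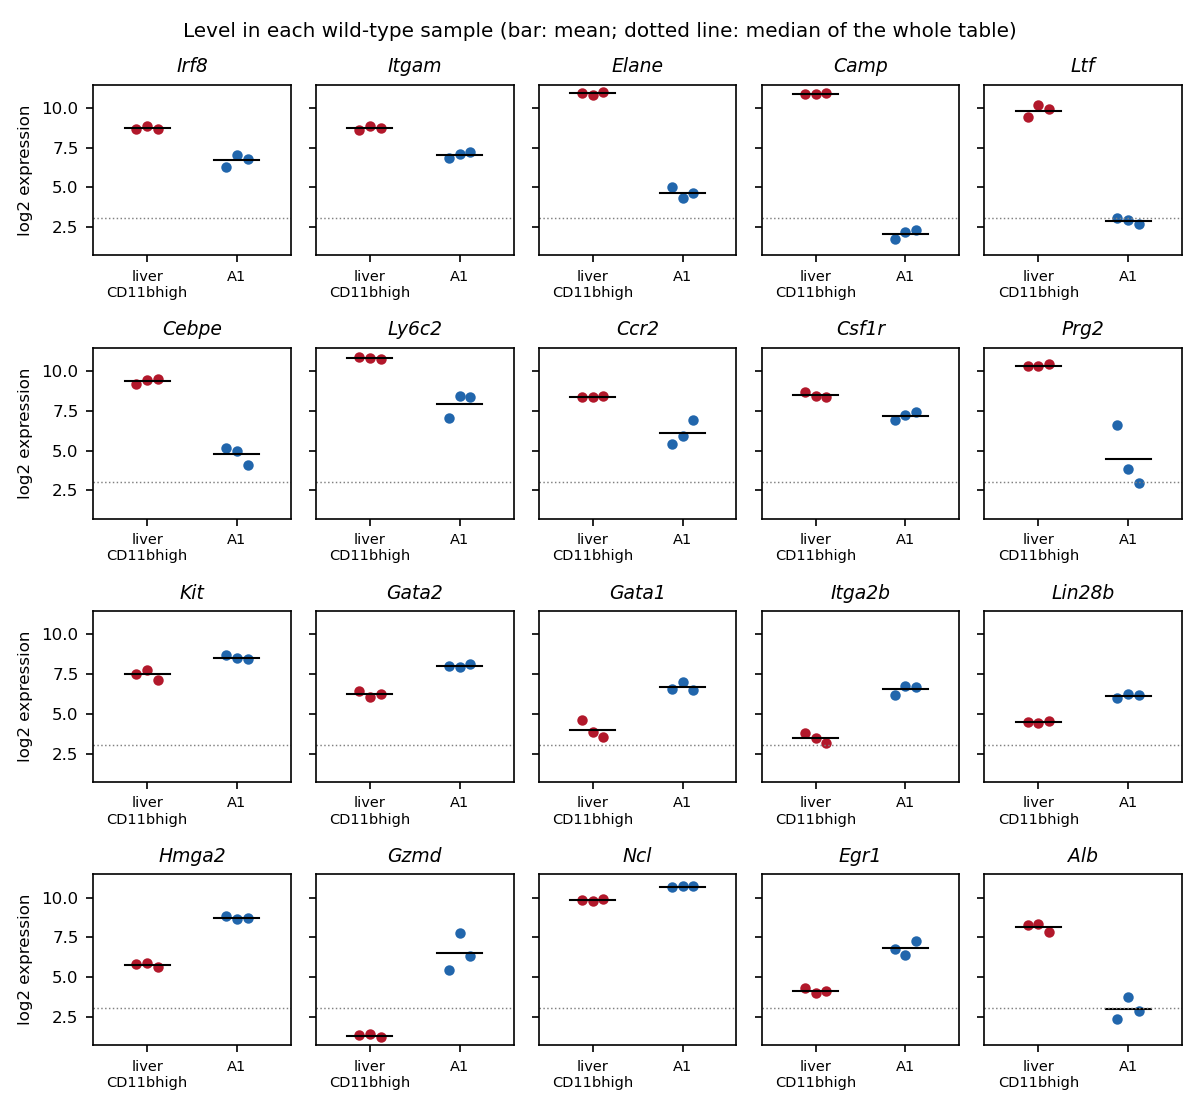
Log2 expression (vertical axis) of 20 genes in each of the 3 E14 liver CD11bhigh samples (left, red) and the 3 A1 samples (right, blue), with bars for means and a dotted line at the table's median of 3.041. Camp and Ltf lie near or below that line in A1 and near 10 in liver, and Kit, Gata2, Gata1, Itga2b, Lin28b and Hmga2 are lower in liver.

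Transcription factors moved in the same samples. Of 58 myeloid factors 20 were higher and 8 lower (48.3%, against 22.1% of all genes). Over all genes 10.7% were higher and 11.4% lower, and the lower count of this list is close to that share. Cebpe, a factor required for secondary granules, had 9.22, 9.45 and 9.51 in liver, against 5.19, 4.97 and 4.12 in A1, the largest change of the list at 4.64 ± 0.41. Gfi1, a repressor needed for neutrophils, changed by 2.11 ± 0.24, Klf4, a monocyte factor, by 2.51 ± 0.33, Spi1, which encodes PU.1, by 1.2 ± 0.15, and Cebpd by 1.62 ± 0.27. Id2 and Id3 encode inhibitors of E proteins. Id2 had 8.84, 8.96 and 8.71 in liver, against 4.08, 4.97 and 6.0 in A1, and Id3 had 7.45, 7.55 and 7.59 in liver, against 4.86, 3.79 and 3.71 in A1. Neither overlapped between the groups. Cebpa, which acts earlier in granulocyte and monocyte commitment, did not pass, at 6.2 ± 0.1 in liver, against 5.76 ± 0.04 in A1. Egr1, Jund, Myc, Mycn, Bach2, Nr4a1, Runx1 and Hif1a were the 8 that fell, Myc by 1.27 to 7.45, against 8.72 in A1. Of these, 4 lost their call when 1 sample was left out. Nr4a1 did so without A1 replicate 2, A1 replicate 3 or any liver replicate (adjusted p from 0.0706 to 0.403, the highest without A1 replicate 3, where its change was -0.41). Bach2 lost it without liver replicate 3 (adjusted p = 0.0638), Runx1 without A1 replicate 1 (adjusted p = 0.0524) or liver replicate 1 (adjusted p = 0.0512), and Hif1a without A1 replicate 1 (adjusted p = 0.0871) or liver replicate 2 (adjusted p = 0.0822).

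Promoter windows were searched for the granule, mature neutrophil, erythroid, megakaryocyte and ribosome biogenesis lists. Whether any factor acts on these genes was not tested. The windows are RefSeq's (GRCm38.p6), 250 bases before to 50 after the first listed start, read 5′ to 3′ on the gene's strand, and 13164 of the 17099 genes had one. Both strands were searched for 4 motifs. The core bound by PU.1 was searched as GAGGAA. For the C/EBP factors, of which Cebpe is a member, the letters TTGCNNAA were used. The sequence bound by GATA factors was searched as AGATAA. The E-box that Myc can bind was searched as CACGTG. None of these 4 sequences contains another. GAGGAA stood in 8 of 11 windows of primary granule genes (72.7%), 11 of 18 of secondary and tertiary granule genes (61.1%), 12 of 19 of mature neutrophil genes (63.2%) and 8 of 14 of megakaryocyte genes (57.1%), against 27.2% of all windows. It stood in 5 of 17 windows of erythroid genes (29.4%) and 8 of 29 of ribosome biogenesis genes (27.6%). TTGCNNAA stood in 2 of 11, 5 of 18, 5 of 19, 2 of 14, 1 of 17 and 2 of 29 windows of the same lists in that order, against 9.29% of all windows. AGATAA stood in 5 of 14 windows of megakaryocyte genes (35.7%), 6 of 17 of erythroid genes (35.3%), 5 of 19 of mature neutrophil genes (26.3%), 3 of 18 of secondary and tertiary granule genes (16.7%), 0 of 11 of primary granule genes and 0 of 29 of ribosome biogenesis genes, against 7.91% of all windows. CACGTG stood in 8 of 29 windows of ribosome biogenesis genes (27.6%), against 9.21% of all windows. It stood in 1 of 11 windows of primary granule genes (9.09%) and 3 of 18 of secondary and tertiary granule genes (16.7%). Of the mature neutrophil, erythroid and megakaryocyte windows, 1 of 19, 0 of 17 and 1 of 14 held it. For each of 4 lists, the 2 members with the largest change whose window held a match follow, with GAGGAA and TTGCNNAA in capitals for the granule genes, AGATAA for the megakaryocyte genes and CACGTG for the ribosome biogenesis genes, on either strand.
Ctsg (chr14:56102525-56102824, minus strand): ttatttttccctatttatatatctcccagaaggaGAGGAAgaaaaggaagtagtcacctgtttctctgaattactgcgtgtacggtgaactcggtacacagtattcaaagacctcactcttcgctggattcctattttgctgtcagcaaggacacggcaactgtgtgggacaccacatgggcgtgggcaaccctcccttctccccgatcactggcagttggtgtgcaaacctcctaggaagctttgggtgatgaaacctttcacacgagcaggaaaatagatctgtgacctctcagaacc
Elane (chr10:79886062-79886361, plus strand): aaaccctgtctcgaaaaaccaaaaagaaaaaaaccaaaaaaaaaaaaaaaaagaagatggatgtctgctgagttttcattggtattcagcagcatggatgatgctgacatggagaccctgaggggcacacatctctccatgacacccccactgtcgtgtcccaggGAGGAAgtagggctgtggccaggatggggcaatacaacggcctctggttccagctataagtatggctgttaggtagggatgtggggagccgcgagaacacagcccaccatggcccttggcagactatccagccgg
Ltf (chr9:111019042-111019341, plus strand): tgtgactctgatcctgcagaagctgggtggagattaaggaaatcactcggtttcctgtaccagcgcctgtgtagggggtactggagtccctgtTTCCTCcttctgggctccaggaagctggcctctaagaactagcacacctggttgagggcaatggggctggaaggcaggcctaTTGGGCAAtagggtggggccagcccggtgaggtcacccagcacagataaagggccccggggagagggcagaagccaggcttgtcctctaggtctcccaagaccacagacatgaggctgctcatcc
Ngp (chr9:110419558-110419857, plus strand): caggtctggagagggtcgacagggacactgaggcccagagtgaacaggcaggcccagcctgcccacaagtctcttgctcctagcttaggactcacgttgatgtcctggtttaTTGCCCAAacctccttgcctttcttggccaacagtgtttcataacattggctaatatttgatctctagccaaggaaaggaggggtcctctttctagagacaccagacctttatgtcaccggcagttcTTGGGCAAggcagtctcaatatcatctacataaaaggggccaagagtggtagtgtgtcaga
Gp5 (chr16:30310732-30311031, minus strand): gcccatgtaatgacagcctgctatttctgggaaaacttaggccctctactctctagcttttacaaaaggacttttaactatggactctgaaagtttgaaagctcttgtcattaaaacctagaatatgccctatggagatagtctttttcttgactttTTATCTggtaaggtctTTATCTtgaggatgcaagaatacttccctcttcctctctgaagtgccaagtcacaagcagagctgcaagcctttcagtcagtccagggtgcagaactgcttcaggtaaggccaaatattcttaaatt
Clec1b (chr6:129397047-129397346, plus strand): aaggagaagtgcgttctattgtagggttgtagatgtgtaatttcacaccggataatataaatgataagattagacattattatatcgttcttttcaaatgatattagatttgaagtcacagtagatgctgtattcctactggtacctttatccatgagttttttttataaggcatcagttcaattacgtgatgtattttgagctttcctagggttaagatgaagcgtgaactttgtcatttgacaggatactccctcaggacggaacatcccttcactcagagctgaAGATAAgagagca
Nop2 (chr6:125131633-125131932, plus strand): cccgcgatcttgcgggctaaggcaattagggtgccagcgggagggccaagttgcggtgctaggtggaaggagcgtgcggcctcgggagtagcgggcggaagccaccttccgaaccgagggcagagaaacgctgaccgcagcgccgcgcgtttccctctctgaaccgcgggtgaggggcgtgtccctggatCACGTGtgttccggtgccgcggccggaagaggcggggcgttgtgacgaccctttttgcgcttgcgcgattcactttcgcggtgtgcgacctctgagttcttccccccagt
Utp20 (chr10:88826765-88827064, minus strand): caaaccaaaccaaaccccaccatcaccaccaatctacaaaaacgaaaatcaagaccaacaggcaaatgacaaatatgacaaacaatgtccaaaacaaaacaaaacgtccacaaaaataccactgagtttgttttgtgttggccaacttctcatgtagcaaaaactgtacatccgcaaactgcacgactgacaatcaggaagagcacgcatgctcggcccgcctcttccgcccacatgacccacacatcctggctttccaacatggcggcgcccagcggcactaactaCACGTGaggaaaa
A match in such a window is a description of its letters, and binding was not tested. The letters of neither granule motif stood in the window of Camp, the gene with the largest rise.

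The liver CD11bhigh cells also carried more of the genes of monocytes. Of 28 tested 18 were higher and 3 lower, with a median of 1.36. Ly6c2, the surface marker of classical monocytes, had 10.91, 10.86 and 10.74 in liver, against 7.06, 8.43 and 8.4 in A1, and Ccr2, which lets monocytes leave the marrow, 8.39, 8.4 and 8.43 in liver, against 5.4, 5.92 and 6.94 in A1. Both genes were higher in every liver sample than in any A1 sample. F13a1, a coagulation factor of monocytes, Hp, haptoglobin, and Vcan, versican, changed by 2.61 ± 0.46, 3.02 ± 0.51 and 2.68 ± 0.42. Cx3cr1, high in patrolling monocytes and tissue macrophages, did not pass at 7.7 ± 0.28 in liver, against 7.18 ± 0.56 in A1, and neither did Cd14 at 4.28 ± 0.21 in liver, against 4.76 ± 0.33 in A1. Fn1, fibronectin, Lyz1 and Nr4a1 were the 3 that fell, Fn1 by 1.2 (not past the test without A1 replicate 1, adjusted p = 0.0512) and Lyz1 by 2.09, while Nr4a1 lost its call in the 5 fits named above. Lyz2, the myeloid lysozyme, changed by 0.74 ± 0.19 at levels of 10.92 ± 0.16 in liver, against 10.18 ± 0.17 in A1. Lyz1 and Lyz2 are close copies whose probes may share signal.

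Many genes for sensing and killing rose. Of 9 phagocyte oxidase genes 7 were higher and 1, Nox4, lower at levels under the table's median. Nox4 lost its call without A1 replicate 1 (adjusted p = 0.123), A1 replicate 2 (adjusted p = 0.184), liver replicate 1 (adjusted p = 0.112) or liver replicate 2 (adjusted p = 0.216). Ncf4 had 8.71, 8.52 and 8.73 in liver, against 5.18, 5.33 and 6.06 in A1, and Cybb, the catalytic chain, changed by 2.62 ± 0.44, Ncf1 by 2.47 ± 0.2 and the proton channel Hvcn1 by 1.98 ± 0.29. Of 27 Fc receptors and their adaptors 20 were higher and 1 lower (2 lower without A1 replicate 1). Fcgr1, Fcgr2b and Fcgr3 changed by 1.53 ± 0.26, 1.32 ± 0.28 and 1.04 ± 0.21, the signalling chains Tyrobp and Fcer1g by 0.99 ± 0.11 and 0.81 ± 0.11, and the inhibitory lectin Clec12a by 4.11 ± 0.4. The 1 lower member was Fcer2a, the low-affinity IgE receptor of B cells, with 2.19, 2.34 and 2.27 in liver, against 4.12, 4.84 and 4.4 in A1. Of 40 pattern recognition genes 20 were higher and 3 lower. Tlr4 and Tlr2, receptors for lipopolysaccharide and for lipopeptides, changed by 1.76 ± 0.25 and 0.99 ± 0.2, Casp1, the inflammasome protease, by 2.53 ± 0.27 and Clec4a2 by 4.75 ± 0.38. Tlr7, Tlr1 and Myd88 did not pass (0.18, 0.37 and 0.24), and the scavenger receptor Marco and the lectins Clec4d and Clec4n fell by 0.91, 1.75 and 0.84. Marco lost its call without A1 replicate 1 (adjusted p = 0.193), A1 replicate 2 (adjusted p = 0.101), liver replicate 2 (adjusted p = 0.0735) or liver replicate 3 (adjusted p = 0.0502), and Clec4n without A1 replicate 3 (adjusted p = 0.107) or liver replicate 3 (adjusted p = 0.0828). The lower count was 1 without liver replicate 3.

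Lysosomal genes rose in 25 of 41 cases, with 0 lower and a median of 0.66. Arsb, arylsulfatase B, had 8.46, 8.29 and 8.44 in liver, against 4.97, 4.99 and 5.64 in A1, the largest of the list. Ctsc, which activates granule proteases, Psap, prosaposin, and Ctsb, cathepsin B, changed by 1.76 ± 0.17, 1.59 ± 0.15 and 1.34 ± 0.16. Cathepsin D (Ctsd) and cathepsin L (Ctsl) did not pass. Ctsd averaged 9.57 ± 0.04 in liver, against 9.24 ± 0.03 in A1.

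Of 33 growth factor and cytokine receptors 14 were higher and 3 lower (51.5%, against 22.1% of all genes). Csf1r had 8.71, 8.41 and 8.38 in liver, against 6.91, 7.27 and 7.42 in A1. Csf2ra, which binds granulocyte-macrophage colony-stimulating factor, Il6ra and Il13ra1 changed by 1.6 ± 0.22, 1.76 ± 0.2 and 2.17 ± 0.26, and the interferon gamma receptor chains Ifngr1 and Ifngr2 by 1.46 ± 0.17 and 1.26 ± 0.15. The lower 3 were Il1r1, with 3.07, 3.04 and 3.37 in liver, against 6.0, 5.91 and 5.95 in A1, Kit and Tgfbr2. Kit lost its call without liver replicate 3 (adjusted p = 0.0672). Among 28 chemoattractant receptors 8 rose and 3 fell (39.3%, against 22.1% of all genes). Cxcr4, the receptor for the liver and marrow chemokine Cxcl12, changed by 2.76 ± 0.33 and Ccr1 by 2.18 ± 0.43. S1pr1, which guides exit into blood, fell by 2.6, Cxcr5 by 1.52 and Ccr7 by 1.17. Ccr7 lost its call without A1 replicate 1 (adjusted p = 0.0691), A1 replicate 2 (adjusted p = 0.176), liver replicate 1 (adjusted p = 0.0809) or liver replicate 3 (adjusted p = 0.094). Among 27 integrins and adhesion genes 8 rose and 6 fell (51.9%, against 22.1% of all genes). Besides Itgam, its partner Itgb2 changed by 1.19 ± 0.19 and Selplg, the selectin ligand, by 1.27 ± 0.24, whereas Itga2b (CD41) and Itgb3, the platelet integrin that also marks early progenitors, fell by 3.06 and 1.95.

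Genes of antigen presentation passed in part, 35.7% of class II and 42.1% of class I genes, against 22.1% of all genes. Of 14 MHC class II genes 3 were higher and 2 lower, the lower count being 1 without A1 replicate 2, A1 replicate 3, liver replicate 1 or liver replicate 3. H2-Ab1 averaged 7.8 ± 0.16 in liver, against 8.37 ± 0.57 in A1 and H2-Aa 7.23 ± 0.09 in liver, against 7.42 ± 0.65 in A1, neither past the test, while H2-DMa, which loads peptides, changed by 1.78 ± 0.27. Of 19 class I genes 6 were higher and 2 lower (0 lower without A1 replicate 3 and 1 without liver replicate 1), the higher ones being processing genes such as Psmb9 (2.13 ± 0.19), Psmb8 (1.22 ± 0.19) and Tap1 (0.85 ± 0.2), while B2m, the shared light chain, averaged 11.24 ± 0.07 in liver, against 11.14 ± 0.15 in A1.

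Genes of eosinophils and basophils were among the largest changes. Of 8 eosinophil genes 5 were higher and 0 lower, with a median of 3.89. Prg2, the major basic protein, had 10.31, 10.31 and 10.45 in liver, against 6.6, 3.83 and 2.98 in A1, and the A1 samples spread over several units with none reaching a liver value. Epx, eosinophil peroxidase, averaged 7.07 ± 0.22 in liver, against 2.42 ± 0.15 in A1 and Prg3 7.69 ± 0.16 in liver, against 3.31 ± 1.06 in A1. Genes of eosinophil receptors did not pass: Siglecf averaged 5.87 ± 0.36 in liver, against 5.82 ± 0.11 in A1, and Ccr3 and Il5ra, the eotaxin and interleukin-5 receptors, lay near the table's median in both groups (-0.08 and -0.7). Of 12 mast cell and basophil genes 7 were higher and 1, Mcpt4, lower. Mcpt4 lost its call without A1 replicate 3 (-0.2, adjusted p = 0.761) or liver replicate 1 (-0.93, adjusted p = 0.0839), and the lower count was 2 without A1 replicate 1. Mcpt8, a basophil protease, had 9.02, 8.83 and 9.04 in liver, against 2.62, 1.85 and 2.13 in A1. Prss34, another, had 7.01, 6.98 and 7.27 in liver, against 2.87, 2.2 and 2.68 in A1. Both lay below or near the table's median in every A1 sample and far above it in every liver sample. Ms4a2, a chain of the IgE receptor, changed by 2.45 ± 0.34. The mast cell genes Cpa3, Cma1 and Tpsb2 did not pass, Cpa3 at 6.39 ± 0.17 in liver, against 6.91 ± 0.2 in A1.

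Genes of resident macrophages split. Of 31 tested 8 were higher and 8 lower (51.6%, against 22.1% of all genes), with a median of -0.2. Trem2, Mpeg1, Slc40a1, the iron exporter, and Adgre1 changed by 2.45 ± 0.39, 1.9 ± 0.27, 1.88 ± 0.34 and 1.02 ± 0.26. The complement genes C1qa and C1qc fell by 1.83 and 1.17 (C1qc lost its call without A1 replicate 2 (adjusted p = 0.121) or liver replicate 2 (adjusted p = 0.0754)), the mannose receptor Mrc1 by 1.78, and Timd4 and Vsig4, which mark Kupffer cells, by 1.72 and 1.85. C1qa had 4.24, 3.94 and 4.55 in liver, against 5.91, 6.19 and 6.13 in A1, and the 2 groups did not overlap. Axl, Mertk and Siglec1 did not pass. Axl, a receptor for the uptake of dead cells, averaged 5.65 ± 0.12 in liver, against 4.99 ± 0.56 in A1, and Siglec1, a sialic acid receptor, 4.72 ± 0.3 in liver, against 4.77 ± 0.74 in A1. Of 20 dendritic cell genes 7 were higher and 2, Ccr7 and Tcf4, lower (at most 1 when any A1 replicate or liver replicate 1 or 3 was left out). The higher ones included Batf3 (2.42 ± 0.4), Siglech (2.14 ± 0.41) and Mgl2 (2.8 ± 0.45), while Zbtb46, a factor of classical dendritic cells, averaged 3.6 ± 0.04 in liver, against 3.58 ± 0.05 in A1 and did not pass.

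**Figure D3:**
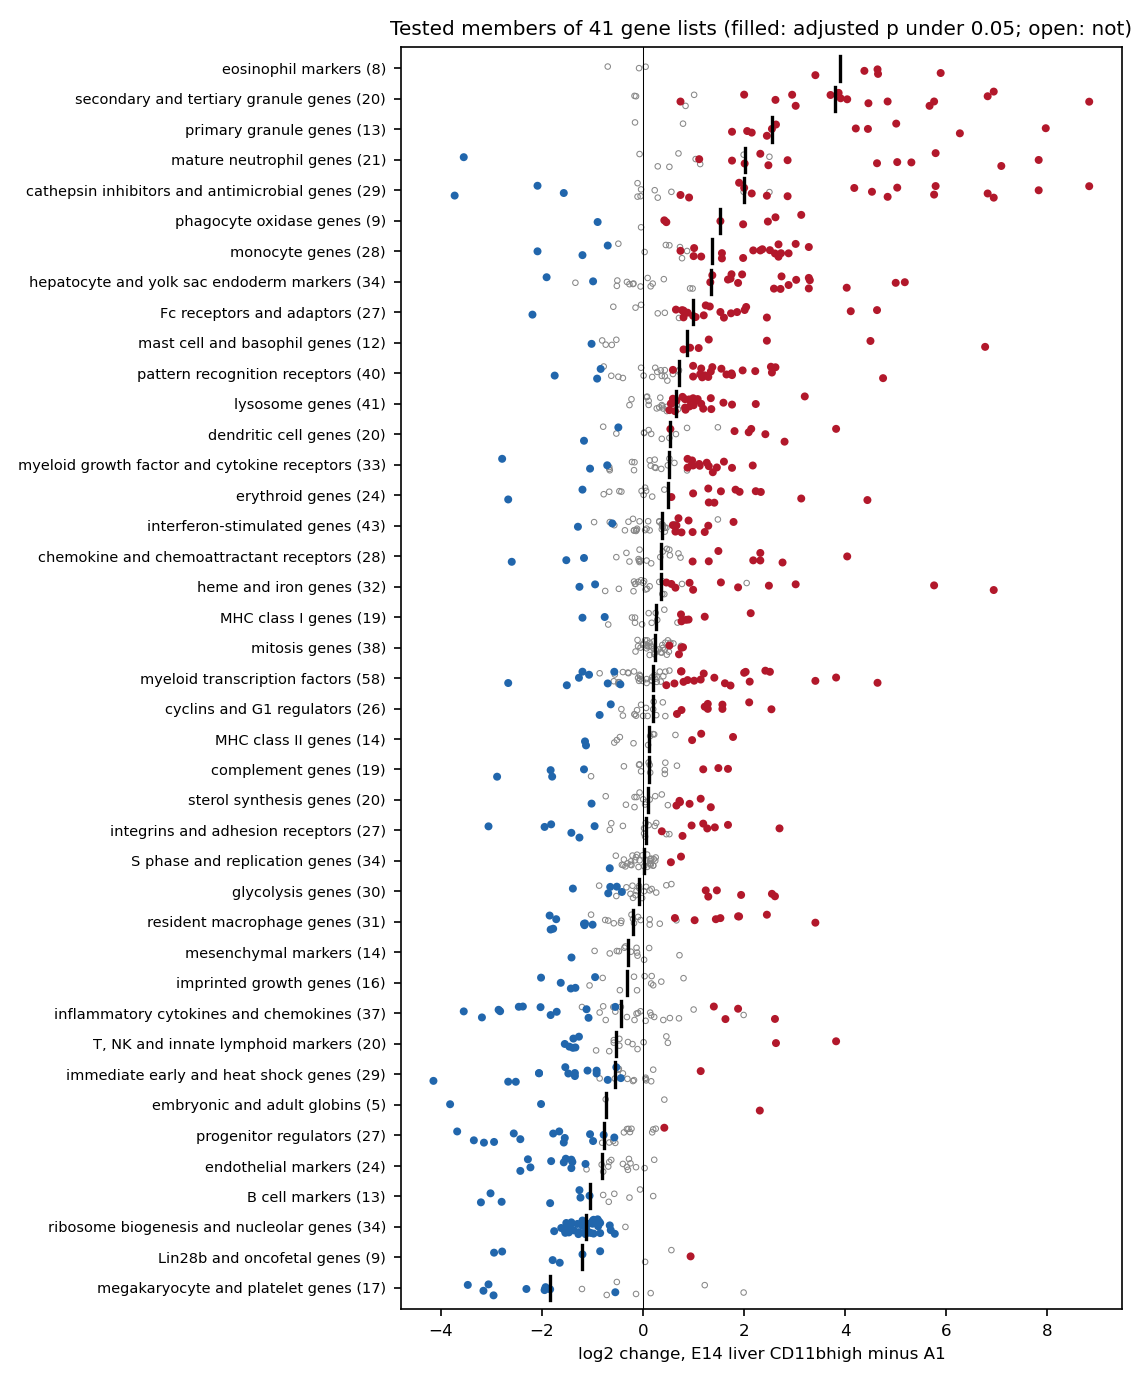
Log2 change, E14 liver CD11bhigh minus A1 (horizontal axis), of each tested member of 41 gene lists (number of members in brackets), ordered by their medians (black bars); filled points passed the test (red higher, blue lower) and open points did not. Granule and eosinophil lists reach medians of 2.55 to 3.89, and the megakaryocyte list lies at -1.84.

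The progenitor programme of A1 was lower, in part. Of 27 regulators 14 were lower and 1 higher, with a median of -0.78. Angpt1, a ligand of the endothelial and stem cell receptor Tek, had 3.87, 3.49 and 3.34 in liver, against 7.23, 7.45 and 7.06 in A1, the largest fall of the list. Gfi1b, an erythroid and megakaryocytic repressor, had 6.04, 5.16 and 5.3 in liver, against 8.92, 8.86 and 8.76 in A1, and Gata2, a factor of stem and mast cells, 6.46, 6.05 and 6.28 in liver, against 8.02, 7.97 and 8.13 in A1. These 3 genes did not overlap between the groups. Zfpm1, the partner of Gata1, fell by 3.15, Ikzf2 by 2.95, Meis1 by 2.56 and Kit by 1.05 (not past the test without liver replicate 3, adjusted p = 0.0672). Kit nevertheless remained well above the table's median in the liver cells, at 7.49. Cd34, Myb, Erg and Etv6 did not pass, with Cd34 at 8.97 ± 0.24 in liver, against 9.52 ± 0.19 in A1 and Myb at 9.14 ± 0.11 in liver, against 9.46 ± 0.09 in A1. The 1 higher member was Fli1, which changed by 0.42 and lost its call without A1 replicate 1 (0.41, adjusted p = 0.0776), A1 replicate 2 (0.37, adjusted p = 0.112), liver replicate 2 (0.39, adjusted p = 0.0962) or liver replicate 3 (0.39, adjusted p = 0.0952).

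Genes that mark early embryonic stages fell as well. Of 9 members of the list of Lin28b and oncofetal genes 6 were lower and 1, Lin28a, higher. Lin28a lost its call without any 1 of the 6 samples (adjusted p from 0.0503 to 0.156). Hmga2, a chromatin protein of fetal stem cells, had 5.83, 5.89 and 5.65 in liver, against 8.82, 8.68 and 8.72 in A1. Lin28b, the RNA-binding protein that keeps let-7 miRNAs low, had 4.5, 4.45 and 4.58 in liver, against 6.02, 6.24 and 6.2 in A1, and Dnmt3b, a de novo DNA methyltransferase, changed by -2.79 ± 0.28. Their E8 erythro-myeloid progenitor means were 6.32 for Hmga2, 6.3 for Lin28b and 6.77 for Dnmt3b. Igf2bp3, another oncofetal RNA-binding protein, did not pass, at 8.34 ± 0.07 in liver, against 8.29 ± 0.14 in A1. Of 16 imprinted genes 5 were lower and 0 higher (31.2%, against 22.1% of all genes). Peg10 fell by 2.02, Igf2 by 1.63, Ndn by 1.43, Grb10 by 1.34 and Impact by 0.95. Mest, Meg3 and Cdkn1c did not pass (0.17, 0.2 and -0.12).

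Erythroid and megakaryocytic genes moved in opposite directions. Of 17 megakaryocyte and platelet genes 10 were lower and 0 higher (1 higher without A1 replicate 1 or liver replicate 3), the lowest median of all lists at -1.84. Mmrn1, a platelet granule protein, had 2.71, 2.32 and 2.97 in liver, against 6.36, 6.22 and 5.83 in A1. Gp5, a chain of the von Willebrand factor receptor, had 3.15, 2.42 and 2.83 in liver, against 6.22, 6.14 and 5.53 in A1. Gp9, another chain, had 5.15, 4.7 and 3.91 in liver, against 7.67, 7.37 and 7.59 in A1. Itga2b had 3.8, 3.5 and 3.15 in liver, against 6.18, 6.77 and 6.67 in A1. None of these genes overlapped between the groups, whereas Pf4, platelet factor 4, did not pass at 5.35 ± 1.38 in liver, against 6.57 ± 0.42 in A1. Of 24 erythroid genes 12 were higher and 2, Gata1 and Car1, lower, with a median of 0.49. Car1 lost its call without A1 replicate 1 (adjusted p = 0.188) or liver replicate 2 (adjusted p = 0.0669). Slc4a1, the red cell anion exchanger, had 7.38, 7.2 and 7.31 in liver, against 2.64, 2.95 and 2.97 in A1, Rhd changed by 3.13 ± 0.29, Ermap by 2.33 ± 0.27 and Hemgn by 2.23 ± 0.3. The regulators did not rise with them: Gata1 had 4.61, 3.83 and 3.57 in liver, against 6.56, 6.98 and 6.49 in A1, Klf1 averaged 4.48 ± 0.16 in liver, against 4.95 ± 0.37 in A1 and Epor 3.75 ± 0.81 in liver, against 4.43 ± 0.12 in A1, and the last 2 did not pass. Of 5 globin genes with a probe of their own the embryonic Hbb-bh1 and Hba-x were lower and Hbq1b higher. Hbb-bh1 had 3.41, 2.71 and 1.79 in liver, against 6.06, 6.82 and 6.49 in A1, and the lower count was 1 without A1 replicate 2 or liver replicate 2. The adult alpha and beta globin genes had no probe with a single gene symbol and were not analysed here.

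Of 24 endothelial genes 10 were lower and 0 higher. Kdr, the receptor for vascular endothelial growth factor, had 3.12, 1.91 and 2.17 in liver, against 4.7, 4.49 and 4.72 in A1, Tie1 3.34, 3.21 and 3.46 in liver, against 6.19, 5.46 and 5.21 in A1, and Tek fell by 2.43. Kdr in liver lay below the table's median, as did the endothelial genes Cldn5 and Sox17 in both groups. B cell genes were also lower, 7 of 13: Cd79a, a chain of the B cell receptor, had 3.4, 2.8 and 2.8 in liver, against 6.3, 6.39 and 5.94 in A1, Ms4a1, which encodes CD20, 1.45, 1.54 and 1.58 in liver, against 4.4, 4.52 and 4.71 in A1, and Pou2af1 fell by 2.8, while Cd79b did not pass at 7.52 ± 0.15 in liver, against 7.78 ± 0.13 in A1. Of 20 T and NK cell genes 6 were lower and 2, Id2 and Nkg7, were higher; without A1 replicate 3 the lower count was 2 and without liver replicate 3 it was 3. The granzymes Gzmc, Gzmd, Gzmg and Gzmf, serine proteases of cytotoxic lymphocytes, were among the 15 largest falls. Gzmd had 1.34, 1.4 and 1.21 in liver, against 5.44, 7.78 and 6.34 in A1, and Gzmc 1.68, 1.44 and 1.71 in liver, against 6.83, 7.07 and 6.69 in A1. With values below the table's median raised to it, these changes were -3.48 for Gzmd and -3.82 for Gzmc. The start windows of Gzmd, Gzmf and Gzmg were identical at 86.6% to 88.9% of aligned bases, and that of Gzmc to these at 63.6% to 64.3%. Such windows lie mostly upstream of the transcript and do not show how alike the probes are. Whether the probes of these granzymes share signal was not tested, so the values of single members are uncertain. Gzmb, another member of the family, averaged 3.77 ± 0.65 in liver, against 4.58 ± 0.25 in A1 and did not pass, and neither did Gzma at 5.34 ± 0.26 in liver, against 4.88 ± 0.93 in A1. The other genes among the 15 largest falls were Muc13, the heat shock gene Hspa1b, Saa3, Cxcl13, Ccl17, Hbb-bh1, Prg4, Fabp4, Gm15915 and 2 immunoglobulin kappa segments. Muc13, a membrane mucin, had 3.99, 3.38 and 3.93 in liver, against 8.61, 8.73 and 8.46 in A1, and Saa3, an acute phase protein, 5.1, 4.91 and 4.51 in liver, against 8.98, 8.83 and 8.34 in A1.

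Few proliferation genes passed the test, while nearly all genes of ribosome production did. Of the S phase genes 8.82% passed and of the mitosis genes 10.5%, against 22.1% of all genes. Of 34 S phase genes 2 were higher and 1 lower, with a median of 0.01, and leaving out any 1 of the 6 samples left at most 1 of these 3 calls. Pcna averaged 9.96 ± 0.02 in liver, against 9.88 ± 0.1 in A1 and Mcm5 8.04 ± 0.05 in liver, against 7.89 ± 0.09 in A1. Of 38 mitosis genes 4 were higher and 0 lower, with a median of 0.23. Mki67 averaged 9.5 ± 0.02 in liver, against 8.74 ± 0.13 in A1 and Cdk1 9.31 ± 0.01 in liver, against 9.17 ± 0.16 in A1. With the spread taken over all 27 groups, neither passed the test. The 4 higher calls became 1 without A1 replicate 3 and 2 without A1 replicate 1 or any liver replicate. Among 26 cyclin and G1 genes 9 were higher and 2 lower (42.3%). Inhibitors of the cycle and other members stood among the higher ones. Cdkn2c had 5.18, 5.49 and 5.34 in liver, against 2.95, 2.96 and 2.49 in A1. Cdkn1b changed by 1.57 ± 0.21 and Rb1 by 1.57 ± 0.13. E2f2, an E2F transcription factor, was higher as well. Ccnd1, cyclin D1, was also higher, but lost its call without A1 replicate 1, A1 replicate 2 or any liver replicate (adjusted p from 0.0728 to 0.229). Ccnd2, cyclin D2, fell by 0.86.

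Ribosome biogenesis and nucleolar genes fell almost without exception: 33 of 34 were lower, 0 higher, with a median of -1.14. Their mean level was 7.27, 7.17 and 7.17 in the liver CD11bhigh samples, against 8.31, 8.36 and 8.37 in the A1 samples. Srm, a member of the list that encodes the polyamine enzyme spermidine synthase, had 8.59, 8.39 and 8.29 in liver, against 10.23, 10.19 and 10.11 in A1. Nop2, an rRNA methyltransferase, had 6.86, 6.74 and 6.82 in liver, against 8.43, 8.37 and 8.5 in A1. Ncl, nucleolin, had 9.86, 9.81 and 9.9 in liver, against 10.67, 10.72 and 10.71 in A1. Each of these was lower in every liver sample than in any A1 sample, by amounts several times the spread of replicates. Polr1b, a subunit of RNA polymerase I, fell by 1.52, Utp20 by 1.49 and Nolc1 by 1.56, while the translation factor Eif4a1 did not pass (-0.35). Of 79 snoRNA genes, a class looked at after its values were seen, 27 were lower and 1 higher (35.4%, against 22.1% of all genes). Many snoRNAs are made from introns of genes for ribosome production, and whether the probes read the host transcript was not tested. Snord49b had 8.26, 8.18 and 8.16 in liver, against 9.67, 9.62 and 9.63 in A1 and Snora73b 7.43, 7.27 and 7.47 in liver, against 8.76, 8.98 and 9.04 in A1.

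Few miRNA genes passed: 10 of 278 were lower and 6 higher, 5.76% against 22.1% of all genes, and whether these probes read mature miRNAs or their precursors was not tested. Members of the miR-17 cluster are shown because 2 of them, Mir18 and Mir19a, passed downwards, and Mir451a because it is the miRNA of red cells. Their RefSeq mature sequences (GRCm38.p6), with the seed (bases 2 to 8) in capitals and no seed shared among them, are given below; 237 of the 278 genes matched a mature sequence.
mmu-miR-18a-5p (chr14:115043867-115043889, plus strand): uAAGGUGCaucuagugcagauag
mmu-miR-19a-3p (chr14:115044048-115044070, plus strand): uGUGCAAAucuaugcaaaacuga
mmu-miR-451a (chr11:78073186-78073207, plus strand): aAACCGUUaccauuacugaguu
Mir18 had 5.06, 4.75 and 5.29 in liver, against 6.4, 6.57 and 6.24 in A1, a change of -1.37 ± 0.5 (adjusted p = 0.0392). Mir17 and Mir20a, of the same cluster, changed by -1.19 ± 0.47 (adjusted p = 0.0636) and -1.36 ± 0.54 (adjusted p = 0.0627) and did not pass. Mir19a and Mir451a lay at or below the table's median in most samples, at 1.95 ± 0.1 in liver, against 3.09 ± 0.65 in A1 for Mir19a and 2.78 ± 0.5 in liver, against 1.92 ± 0.2 in A1 for Mir451a.

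Of the glycolysis and hypoxia genes 36.7% passed, of the sterol synthesis genes 35% and of the heme and iron genes 40.6%, against 22.1% of all genes. Of 30 glycolysis and hypoxia genes 6 were higher and 5 lower; the lower count was 2 without A1 replicate 1 and 3 without A1 replicate 2, A1 replicate 3 or liver replicate 2. Vegfa, vascular endothelial growth factor, had 6.92, 6.99 and 7.33 in liver, against 4.8, 4.47 and 4.13 in A1, and Hk3, a myeloid hexokinase, 5.64, 5.71 and 5.67 in liver, against 2.92, 2.92 and 3.51 in A1, while Gapdh averaged 11.21 ± 0.11 in liver, against 11.35 ± 0.03 in A1. Of 20 sterol synthesis genes 6 were higher and 1, Fasn, lower: Fdps, farnesyl diphosphate synthase, changed by 1.34 ± 0.23 and Sc5d by 1.14 ± 0.25. Of 32 heme and iron genes 11 were higher and 2 lower (1 lower without A1 replicate 2, A1 replicate 3 or liver replicate 2). Among the higher ones was Alas1, the first enzyme of heme synthesis outside red cells, with 8.78, 8.83 and 8.87 in liver, against 6.33, 6.29 and 6.37 in A1. Ltf and Lcn2, given above with the granule genes, and Hp, given with the monocyte genes, are 3 of these 11.

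Among stress and cytokine genes that passed, most were lower in the liver cells. Of 29 immediate early and heat shock genes 15 were lower and 1, Klf6, higher. Egr1, an early growth response factor, had 4.3, 4.02 and 4.12 in liver, against 6.78, 6.39 and 7.3 in A1, and Jun 4.69, 4.67 and 4.81 in liver, against 6.21, 6.31 and 6.26 in A1. Hspa1b, an inducible HSP70 gene, had 2.58, 3.16 and 2.06 in liver, against 6.59, 6.76 and 6.9 in A1, and Hsph1 fell by 2.06. For these genes the A1 samples lay above all liver samples. Hspa1a and Hspa1b are close copies. Fos, Ier2 and Atf3 did not pass (0.05, 0.2 and -0.18). Of 37 cytokine and chemokine genes 12 were lower and 4 higher. Ccl2, a monocyte attractant, had 4.22, 3.73 and 3.13 in liver, against 6.63, 5.98 and 7.04 in A1. Ccl7, another, had 2.92, 3.0 and 2.72 in liver, against 6.43, 5.54 and 6.24 in A1. Cxcl2, a neutrophil attractant, had 2.85, 3.72 and 3.24 in liver, against 6.0, 5.69 and 6.61 in A1. All 3 were lower in every liver sample than in any A1 sample. Grn, progranulin, and Il18 were among the 4 that rose, by 1.63 ± 0.14 and 1.88 ± 0.32. Of 43 interferon-stimulated genes 10 were higher and 2 lower (27.9%, against 22.1% of all genes), with a median of 0.37. The higher count was 3 without liver replicate 1, 4 without A1 replicate 1, 5 without liver replicate 2 and 6 without A1 replicate 2. The lower count was 0 without A1 replicate 3 and 1 without A1 replicate 2, liver replicate 2 or liver replicate 3. Slfn2 (1.79 ± 0.25) and Stat2 (0.9 ± 0.18) rose, Rsad2, an antiviral enzyme, fell by 1.29 (not past the test without A1 replicate 3, adjusted p = 0.0529), and Isg15 averaged 5.14 ± 0.3 in liver, against 5.43 ± 0.54 in A1. Of 19 complement genes 3 were higher and 4 lower (36.8%, against 22.1% of all genes), C4b falling by 2.89.

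The same step was measured in Irf8 knockout embryos, and the knockout and wild-type steps share no sample. In the knockout 6370 genes changed (37.3%), 2870 higher (16.8%) and 3500 lower (20.5%). Of the 1830 genes higher in the wild-type step 1467 (80.2%) were also higher in the knockout step, which is 51.1% of all genes higher in the knockout step, and of the 1942 lower genes 1608 (82.8%) were also lower, which is 45.9% of all genes lower in the knockout step. The difference between the steps itself passed the test for 1190 genes (6.96%): 655 (3.83%) moved further up, or less far down, in the knockout, and 535 (3.13%) the reverse. The larger side turned in other fits: the counts were 1345 and 1637 with the compared groups alone, 1311 and 1574 with the replicate block in that fit, and 1475 and 1653 with array weights. Without knockout liver replicate 2 the number fell to 758, with 489 and 269. Irf8 itself had 5.55, 5.19 and 6.43 in knockout liver, against 7.07, 6.87 and 5.9 in knockout A1, with wild-type values of 8.67, 8.88 and 8.67 in liver, against 6.26, 7.05 and 6.8 in A1. Irf8 values of knockout A1 and wild-type A1 overlapped, those of knockout and wild-type liver did not, and the difference between the steps was -2.92 ± 0.35 (adjusted p = 8.67e-09). Whether the probe lies in the deleted part of the gene was not stated, so the probe does not check the knockout.

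The basophil proteases Mcpt8 and Prss34 had the largest reductions of a rise. Mcpt8 had 3.08, 3.66 and 5.6 in knockout liver, against 1.82, 2.3 and 2.03 in knockout A1, and the difference between the steps was -4.71 ± 0.59 (adjusted p = 2.27e-08). Prss34 had 2.84, 3.06 and 4.0 in knockout liver, against 2.8, 2.67 and 3.07 in knockout A1, a difference of -4.05 ± 0.53. Knockout liver replicate 3 was the highest of its group for both. The monocyte genes Ms4a4c and Vcan, Id3 and Tlr3, a sensor of double-stranded RNA, rose in the wild-type step and changed by -1.98, -0.19, 0.31 and -0.74 in the knockout step, with differences of -3.54 ± 0.8, -2.87 ± 0.59, -3.1 ± 0.56 and -2.96 ± 0.45. The wild-type rise of Ms4a4c lost its call without A1 replicate 1 (adjusted p = 0.367), liver replicate 1 (adjusted p = 0.106), liver replicate 2 (adjusted p = 0.109) or liver replicate 3 (adjusted p = 0.0519). Csf1r likewise changed by 0.01 in the knockout, a difference of -1.29 ± 0.25. Rnd3, Hpgd and Gm14322 completed the 10 largest reductions. Ly6c2 and Ccr2 did not differ past the test (1.84 ± 0.96 and -1.0 ± 0.46).

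Some of the later granule and neutrophil genes rose further in the knockout step. Of 20 secondary and tertiary granule genes 20 were higher in the knockout step. By the test of the difference between the steps, 11 differed upwards from the wild-type step and 0 downwards. Mmp8 had 10.21, 10.54 and 10.32 in knockout liver, against 4.21, 3.39 and 3.74 in knockout A1 (difference 2.87 ± 0.65), and Padi4, which did not pass in wild type, had 5.61, 6.13 and 5.74 in knockout liver, against 2.19, 2.29 and 2.59 in knockout A1 (difference 3.6 ± 0.44). Of 21 mature neutrophil genes 7 differed upwards, among them Ly6g (3.55 ± 0.86), Retnlg (4.55 ± 0.97) and Il1b, which fell in the wild-type step. The wild-type rise of Ly6g lost its call without A1 replicate 1 (adjusted p = 0.0533), A1 replicate 2 (adjusted p = 0.0814) or A1 replicate 3 (adjusted p = 0.0562). It also lost it without liver replicate 2 (adjusted p = 0.0517) or liver replicate 3 (adjusted p = 0.158). Ltf, Camp and Elane did not differ past the test (-0.23 ± 0.92, -2.63 ± 1.4 and -0.17 ± 1.08). Of 13 primary granule genes 1 differed upwards and 2 downwards, Ctsc with a difference of -1.57 ± 0.23. Of 34 ribosome biogenesis genes 33 were lower and 1 higher in the knockout step, and 17 differed downwards from the wild-type step and 1 upwards. Of 24 erythroid genes 9 differed upwards and 0 downwards, while 4 of 14 MHC class II genes and 5 of 19 class I genes differed downwards and 0 of either upwards.

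Immediate early and heat shock genes differed as well. Of 29 members 23 were higher in the knockout step than in the wild-type step by the test of the difference, and 1 lower. Egr1 had 7.43, 7.51 and 7.34 in knockout liver, against 4.21, 4.46 and 3.48 in knockout A1, a difference of 6.05 ± 0.48 (adjusted p = 2.88e-15), and Jun 8.94, 8.79 and 7.52 in knockout liver, against 4.69, 5.42 and 4.82 in knockout A1, a difference of 4.98 ± 0.37. Egr1 was higher in every knockout liver sample than in any wild-type liver sample, and lower in every knockout A1 sample than in any wild-type A1 sample. Of 37 cytokine and chemokine genes 14 differed upwards, with Cxcl2 at 5.03 ± 0.48 and Il1b at 5.02 ± 0.42. Saa3 had 5.07, 4.88 and 5.75 in knockout liver, against 2.63, 2.41 and 3.81 in knockout A1, the largest difference at 6.16 ± 0.87. Hcar2, Fabp4, Nt5e, Nr4a1 and Trib1 completed the 10 largest upward differences. No batch is given in the labels for the knockout or the wild-type arrays, so a batch between genotypes cannot be told apart from genotype.

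**Figure D4:**
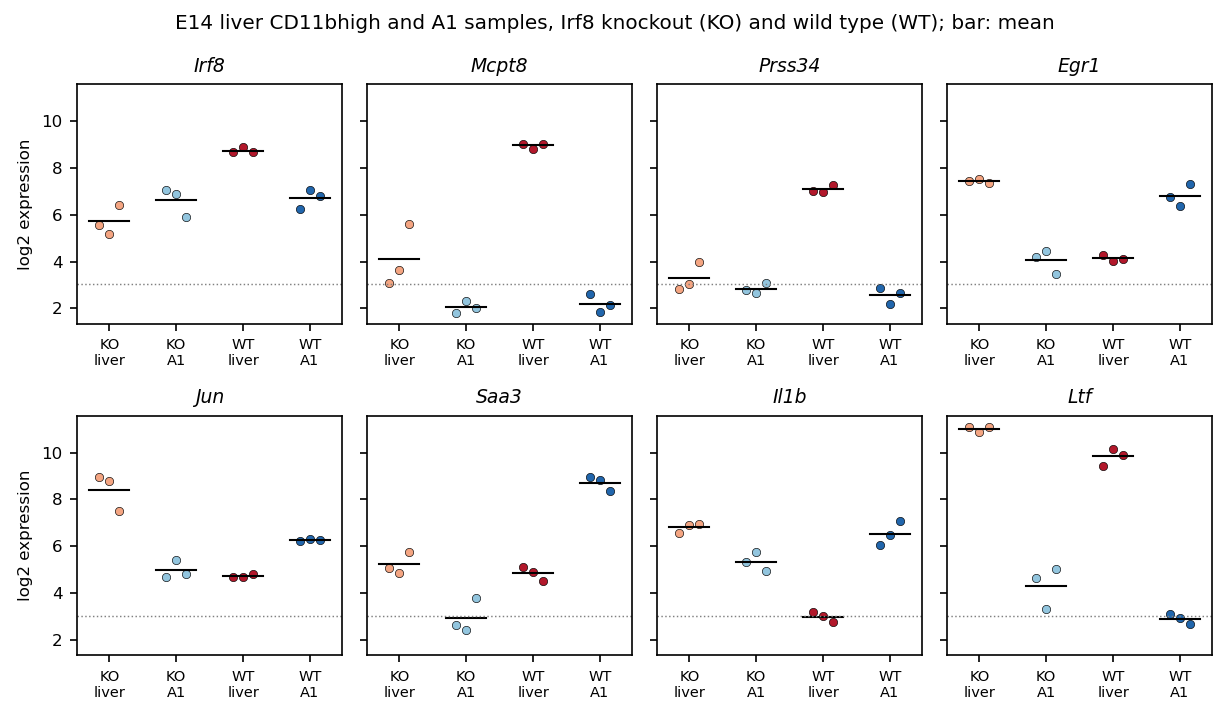
Log2 expression (vertical axis) of 8 genes in each sample of, from left to right, Irf8 knockout (KO) E14 liver CD11bhigh cells, KO A1, wild-type (WT) E14 liver CD11bhigh cells and WT A1, with bars for means of 3 samples and a dotted line at the table's median. Mcpt8 and Prss34 are highest in WT liver, and Egr1 is high in KO liver and WT A1.

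A second step in wild-type embryos set E14 Kupffer cells, the resident macrophages of the liver, against A2, and shares no sample with this one. Same-numbered samples of both E14 liver groups ran alike in 2 sex-linked genes, as given at the end. Whether they came from the same embryos is not stated, and the contrast did not pair them. With the compared groups alone 4028 genes differed between the steps, and 3976 with the replicate number as a block. In it 4370 genes changed (25.6%), 1971 higher (11.5%) and 2399 lower (14%). Of the 1830 genes higher in the CD11bhigh step 566 (30.9%) were also higher in the Kupffer step (28.7% of its higher genes) and 199 (10.9%) were lower, and of the 1942 lower genes 888 (45.7%) were also lower (37% of its lower genes). The difference between the steps passed the test for 2722 genes (15.9%), 1356 higher (7.93%) and 1366 lower (7.99%) in the CD11bhigh step. With each array centred on its median these counts were 1932 and 1155, and the median difference of all genes was 0.164.

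Resident macrophage genes set the steps apart on 1 side. Of 31 members 17 were lower in the CD11bhigh step than in the Kupffer step and 3 higher. Cd5l, a secreted macrophage protein of the liver, did not pass in the CD11bhigh step, with 2.7, 2.41 and 2.82 in liver, against 3.25, 3.18 and 2.78 in A1, whereas it had 9.99, 10.46 and 10.32 in Kupffer cells, against 1.73, 1.89 and 1.92 in A2, a difference of -8.84 ± 0.54 (adjusted p = 1.61e-20). Spic, a factor of iron-recycling macrophages, had 9.78, 9.87 and 9.83 in Kupffer cells, against 2.62, 2.45 and 2.76 in A2, a difference of -7.97 ± 0.51, and Vsig4, a complement receptor, 7.54, 7.48 and 7.76 in Kupffer cells, against 1.81, 1.85 and 1.9 in A2, a difference of -7.59 ± 0.6. Marco, Cdh5, Gm19765, Scd1, Muc13, F2r and Pltp completed the 10 largest downward differences. All 24 erythroid genes were lower in the CD11bhigh step than in the Kupffer step, Gata1 with a difference of -5.57 ± 0.37, and so were 13 of 34 hepatocyte genes, Alb with -2.41 ± 0.59; the Kupffer step itself raised 24 of 24 erythroid genes. Of 43 interferon-stimulated genes 16 were lower in the CD11bhigh step than in the Kupffer step and 1 higher, and 22 were higher in the Kupffer step itself.

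Granule genes set them apart on the other. Of 20 secondary and tertiary granule genes 13 were higher in the CD11bhigh step than in the Kupffer step and 0 lower, and of 13 primary granule genes 7 and 0. Ltf had 4.48, 3.07 and 3.01 in Kupffer cells, against 2.26, 3.42 and 2.82 in A2, a difference of 6.25 ± 0.92, and Camp 5.36, 3.62 and 5.66 in Kupffer cells, against 1.92, 3.53 and 2.11 in A2, a difference of 6.47 ± 1.4. Clec5a, a receptor of neutrophils and monocytes, and F13a1 were lower in Kupffer cells than in A2, and differed by 6.56 ± 0.56 and 5.82 ± 0.66. Csta3, Stfa3, Fcnb, Ngp, Olfm4 and Cstdc6 completed the 10 largest upward differences. Ribosome biogenesis genes fell in both steps: 30 of 34 were lower in the Kupffer step, and 3 differed between the steps. Irf8 did not pass in the Kupffer step, with 8.71, 8.52 and 8.7 in Kupffer cells, against 8.6, 8.64 and 8.78 in A2, and the difference between the steps was 2.07 ± 0.35.

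**Figure D5:**
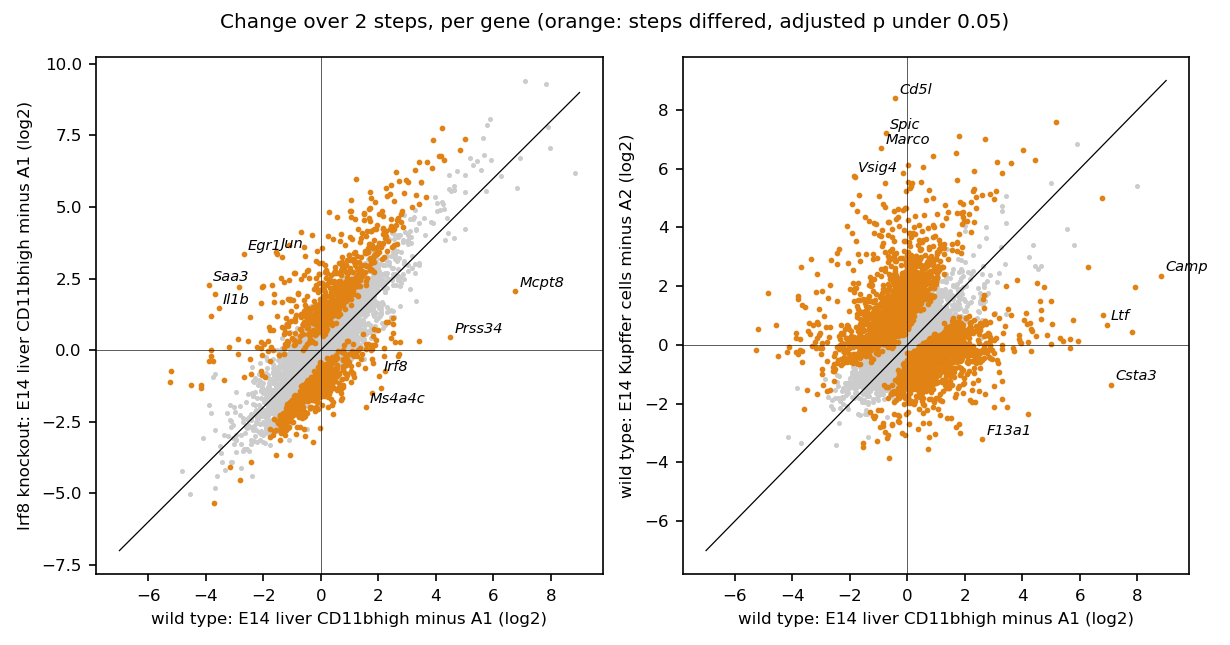
Log2 change per gene in the wild-type CD11bhigh step (horizontal axes) against the Irf8 knockout step (left) and the Kupffer step (right); orange points are the 1190 and 2722 genes whose difference between steps passed the test, and the line marks equal changes. Mcpt8, Prss34 and Irf8 lie below the line on the left, and Cd5l, Spic, Marco and Vsig4 high above it on the right.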

How the data were processed

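Cells were sorted by flow cytometry, total RNA was isolated with the Arcturus PicoPure kit, amplified with the Ovation PicoSL WTA System V2 and labelled with biotin, per the labels' protocols. The authors deposited log2 expression values from Affymetrix arrays, summarised by RMA with the program Affymetrix Expression Console according to the submitters' processing notes. Neither its version nor a genome build was given in the sources used here. Of 41345 probes, 23521 had 1 gene symbol, 1814 several and 16010 were not listed in the platform annotation. The brightest probe of each of 22180 genes was kept, and 17099 genes above the table's median (3.041) in at least 2 of 81 arrays were tested. Both runs of 1 sample outside these comparisons were averaged, which gave 80 samples.

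One linear model with a mean for each of 27 groups was fitted with limma 3.58.1 in R 4.3.3 (lmFit, and eBayes with an intensity trend; 53 residual degrees of freedom), so that the spread came from all groups. P-values were adjusted by Benjamini-Hochberg over all genes tested, with a threshold of 0.05. Differences between steps were contrasts of the same fit. The scripts were tested on simulated data. Groups and replicate numbers came from the labels. Nothing in the labels says whether replicates came from separate litters. The p-values set a change against the spread between replicates over all 27 groups, and that spread may be technical. The number of arrays limits the precision.

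The members and gene lists were chosen with earlier results of these data known. Named genes were Irf8, Itgam, the 15 largest rises and falls among called genes without overlap, up to 6 called members per list and direction by adjusted p, list members that did not pass, and the 10 largest differences between steps in each direction. Cebpd, Clec1b, Csf2ra, Fcgr2b, Fcgr3, Gata2, Gp9, Hif1a, Ly6c2, Ly6g, Lyz2, Mmp8, Ms4a3, Nolc1, Pglyrp1, Polr1b, Prtn3, Ptprc, Tlr2, Tlr4, Utp20, the miRNA genes and the snoRNA genes were named after their values were seen. So was Ccnd1. The alternatives tried were quantile normalization, centring of each array on its median, weighted arrays, fitting the compared groups alone (also with replicate number as a block), every probe tested, a floor raised to the 75th percentile or left out, no variance trend, no X and Y genes, values raised to the floor (chosen after seeing the data) and each sample left out in turn.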

Additional observations from a re-analysis of the deposited data

Results flagged for a closer look

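The step from A1 to liver CD11bhigh cells differed between Irf8 knockout and wild-type embryos, by the contrast of the 2 steps in limma's fit, for 1190 genes. The differences below are the knockout step minus the wild-type step on the log2 scale, and the 10 largest in each direction are named. Downward they were -4.71 for Mcpt8, -4.05 for Prss34, -3.54 for Ms4a4c, -3.41 for Rnd3, -3.27 for Hpgd, -3.1 for Id3, -2.96 for Tlr3, -2.92 for Irf8, -2.92 for Gm14322 and -2.87 for Vcan. Upward they were 6.16 for Saa3, 6.05 for Egr1, 5.62 for Hcar2, 5.03 for Cxcl2, 5.02 for Il1b, 4.98 for Fabp4, 4.98 for Jun, 4.89 for Nt5e, 4.84 for Nr4a1 and 4.77 for Trib1. These 20 differences stayed past the threshold in each alternative that was run.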

How the results depend on the processing

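With array weights 5905 genes changed between liver CD11bhigh cells and A1, 2780 higher and 3125 lower, 3128 differed between the knockout and wild-type steps, and 4367 between the CD11bhigh and Kupffer steps. When the fit held the compared groups alone, 2917 genes were lower in the liver cells and 2982 differed from the knockout step. Leaving out 1 sample at a time gave 3018 to 3285 changed genes, 1456 to 1645 higher and 1510 to 1649 lower, all with fewer samples than the full fit. In such fits the difference from the knockout step covered 758 to 1078 genes, the lowest without knockout liver replicate 2, and the difference from the Kupffer step 2401 to 2541. The other settings left these counts within 1.5 times. The replicate numbers did not pair the samples: deviations of same-numbered liver and A1 samples from their group means correlated at -0.035, -0.023 and -0.039. With the replicate number as a block in that smaller fit 5432 genes changed, against 5525 without it, and 2885 differed from the knockout step. These checks covered the named genes and all tested members of the gene lists. Of 467 such genes that passed the test, 371 kept their call in each alternative and 96 lost it in at least 1. Of these 96, 92 lost it when a sample was left out, and 0 changed direction. The cause of these movements was not tested. Probes near the table's median have little signal over background, and with 3 samples a group a change that missed the threshold is not shown to be absent.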

Other observations

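The sex-linked genes Xist and Eif2s3y ran alike by replicate number in both sets of E14 liver samples. Xist, which is expressed from the inactive X chromosome of female cells, was at 9.71, 5.92 and 8.82 in liver CD11bhigh replicates 1, 2 and 3, and at 9.71, 5.76 and 9.21 in the Kupffer cell replicates of the same numbers. Eif2s3y, a gene of the Y chromosome, was at 3.84, 6.86 and 2.34 in the liver CD11bhigh replicates and at 4.02, 7.23 and 1.9 in the Kupffer cell replicates. Over all genes, deviations of these same-numbered samples from their group means correlated at -0.01, 0.041 and 0.016. The 3 A1 samples carried both transcripts, with Xist at 6.61, 8.99 and 9.22 and Eif2s3y at 6.0, 6.09 and 5.32. Leaving out genes of chromosomes X and Y gave 1775 higher and 1870 lower genes between liver CD11bhigh cells and A1.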
